A study of Mus musculus with 6 samples.

Results

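The genes described here are the laminin chains, the linker proteins and proteoglycans that complete the core of the basal lamina (nidogens, perlecan and agrin), and the integrin chains, which are cell-surface receptors for these and other matrix proteins. They were taken by a pattern of gene symbols, which 41 of the 24062 symbols in the deposited table matched. The set was chosen with earlier results of these data known. RNA was sequenced from auditory nerves dissected out of the cochleae of young adult mice, 3 wildtype and 3 Vcan knockout, all given as C57BL/6 in the labels (C57BL/6J for the wildtype mice in the design text). Each library held RNA of a single mouse, with both cochleae pooled. The labels name no allele, promoter or Cre driver for the knockout and do not say which part of Vcan was altered, and they give no treatment for either group.

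A laminin is a trimer of an alpha, a beta and a gamma chain, and laminins join into a sheet on the cell surface that nidogens and the heparan sulfate proteoglycan perlecan tie to type IV collagen. In peripheral nerve each Schwann cell with its axon is wrapped in such a sheet, and laminins that carry the alpha 2 chain, bound by integrins of the beta 1 and beta 4 chains and by dystroglycan, are known to be needed for Schwann cells to sort and myelinate axons. Other integrins serve other cells: the beta 2 and beta 7 chains and their alpha partners belong mainly to white blood cells, and Itga2b with Itgb3 forms the fibrinogen receptor of platelets.

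Library totals were 74530860 to 92513887 counts. Vcan had 697, 864 and 626 counts in the wildtype and 413, 249 and 248 in the knockout libraries, a log2 fold change of −1.20 (SE 0.32) whose Benjamini-Hochberg adjusted p was 0.558 in edgeR's quasi-likelihood F test and 0.0334 in DESeq2. Levels are given in CPM, counts divided by library size after TMM scaling. Schwann cell markers summed to 8882 to 15138 CPM and markers of spiral ganglion neurons to 7176 to 13876 CPM, so markers of both cell types were found in all 6 libraries. Oligodendrocyte markers summed to 3024 to 6437 CPM in wildtype and 2764 to 4336 CPM in knockout nerve. Astrocyte markers summed to 833 to 1347 CPM in wildtype and 496 to 738 CPM in knockout nerve. The Schwann cell sum is not of Schwann cells alone, since Mag is in both the Schwann cell and the oligodendrocyte list. Wildtype replicate 3 stood apart: its correlations with the other libraries (log2 CPM) were 0.9475 to 0.9566, its neuron marker sum was the lowest (7176 CPM, against 12091 to 13876) and its sum of cochlear epithelium markers the highest (669 CPM, against 267 to 377). In bulk RNA, fewer cells of a type and less RNA per cell cannot be told apart.

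None of the 41 genes differed between the genotypes at an adjusted p under 0.05. Of the 40 with enough counts to be tested, edgeR called 0, against 0.138% of 16722 genes (0.0658% higher and 0.0718% lower in knockout nerve), and the lowest adjusted p among them was 0.816. DESeq2 called 0 of the 41, against 1.39% of genes. The authors' deposited table calls 0 of the 40 that have an adjusted p there, against 1.34%. Without adjustment, 4 genes had p under 0.05 in edgeR (10% of the 40, beside 5.2% of all genes) and 6 in DESeq2 (14.6% of the 41, beside 5.88%). The 4 in edgeR were Itga2b, Itgal and Itgb7, with higher means in knockout nerve (2.56% of all genes passed in that direction), and Itgam, with a lower mean (2.64%). Itgb3 was among those that DESeq2 added. Itgad, an alpha chain of white blood cells, had 21 counts over all 6 libraries and was not tested.

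Log2 fold changes (knockout over wildtype) ran from −1.22 for Itga2 to 1.10 for Itgb3. They were above 0 for 12 genes and below 0 for 28, with a median of −0.13 beside −0.01 over all genes, of which 48.9% were above 0. This split rested on single libraries: without wildtype replicate 3 it was 21 above and 19 below with a median of 0.08, and without knockout replicate 1 it was 10 above and 30 below with a median of −0.36. For 32 of the 40 genes the difference between group means was smaller than the SD within groups (log2 CPM), as it was for 74.5% of all genes.

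**Figure D1:**
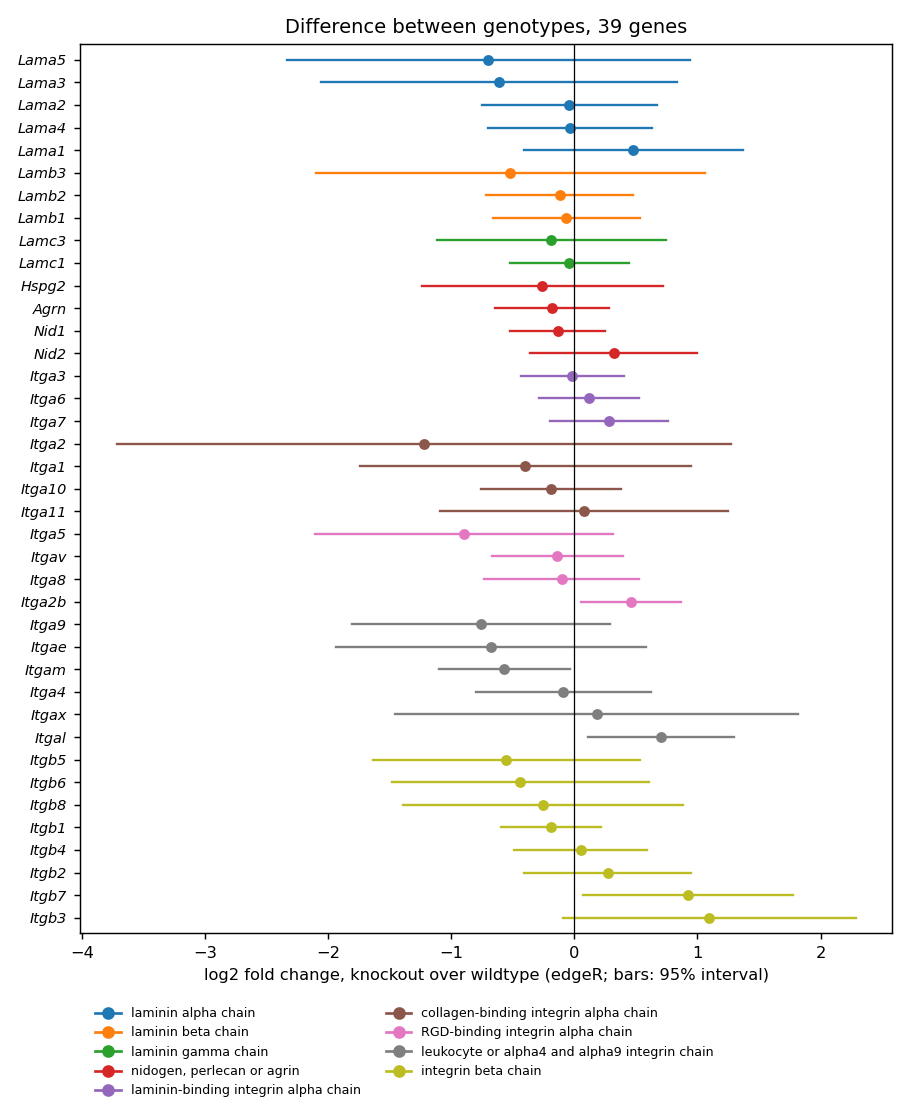
Log2 fold change of knockout over wildtype (edgeR, 3 libraries a group) for 39 of the 40 genes tested, coloured by role, with bars for the 95% interval. The intervals of Itga2b, Itgal, Itgb7 and Itgam exclude 0 and the others drawn span it; none of the 40 passed adjustment over all genes.

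The laminin alpha chains set the kind of trimer, and all 5 were tested, 1 with a fold change above 0 and 4 below. Lama2, the alpha chain of Schwann cell and muscle laminins (chromosome 10, 26981285 to 27617191, GRCm38), was at 193, 126 and 213 CPM in wildtype and 239.9, 129 and 148 CPM in knockout nerve. Its groups overlapped, with knockout replicate 1 highest and wildtype replicate 2 lowest, and the log2 fold change was −0.04 (SE 0.30, 95% interval −0.75 to 0.67). Lama4, a chain of vascular and perineurial laminins, was at 63.4, 45.0 and 55.7 CPM in wildtype and 76.5, 39.7 and 43.6 CPM in knockout nerve (log2 fold change −0.04, SE 0.28). Here the knockout libraries held both the highest and the lowest value.

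Lama5, an alpha chain of many epithelial and vascular basement membranes (chromosome 2, 180176373 to 180225904), was at 40.7, 29.3 and 157 CPM in wildtype and 76.0, 32.5 and 31.6 CPM in knockout nerve. Wildtype replicate 3 was 2.07 times the next highest library, and the log2 fold change of −0.70 (SE 0.69) turned to 0.41 without it. Lama1, best known from embryonic basement membranes, was at 45.4, 27.5 and 27.0 CPM in wildtype and 72.5, 32.1 and 34.6 CPM in knockout nerve (log2 fold change 0.48, SE 0.37). Knockout replicate 1 was the only knockout library above all wildtype libraries, and without it the log2 fold change of Lama1 was 0.0012. Lama3, the alpha chain of the laminin that anchors epithelia, was low, at 1.78 to 5.24 CPM in wildtype and 1.17 to 4.53 CPM in knockout nerve.

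Divided by the length of the longest annotated transcript, Lama2 held the largest share of the summed alpha chain level in every library, 45.7% to 52.7%. Lama4 followed with 24.7% ± 5.04 in wildtype and 24.6% ± 0.394 in knockout nerve (SD, n = 3). The share of Lama5 was 9.07%, 9.83% and 28.5% in wildtype and 12.8%, 10.8% and 9.52% in knockout nerve, so the wildtype libraries spread over a wider range than all knockout libraries. The share of Lama1 was 12.1%, 11.05% and 5.83% in wildtype and 14.5%, 12.8% and 12.4% in knockout nerve. The groups did not overlap for the share of Lama1, by a narrow gap (12.1% against 12.4%), while its CPM values overlapped. A design of 3 against 3 has a smallest two-sided exact permutation p of 0.1. Shares within a library depend on each other, and that of Lama5 was highest in wildtype replicate 3, where that of Lama1 was lowest. Among integrin chains the shares of Itga2b, Itgal, Itgam and Itgb7 did not overlap. The CPM values of the same genes did not overlap either, so these shares are no separate result. No rate over all genes was computed for shares. With the joined length of all annotated exons in place of the longest transcript, Lama5 (39.8%) stood above Lama2 (37.5%) in wildtype replicate 3, and Lama2 led in the 5 other libraries.

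**Figure D2:**
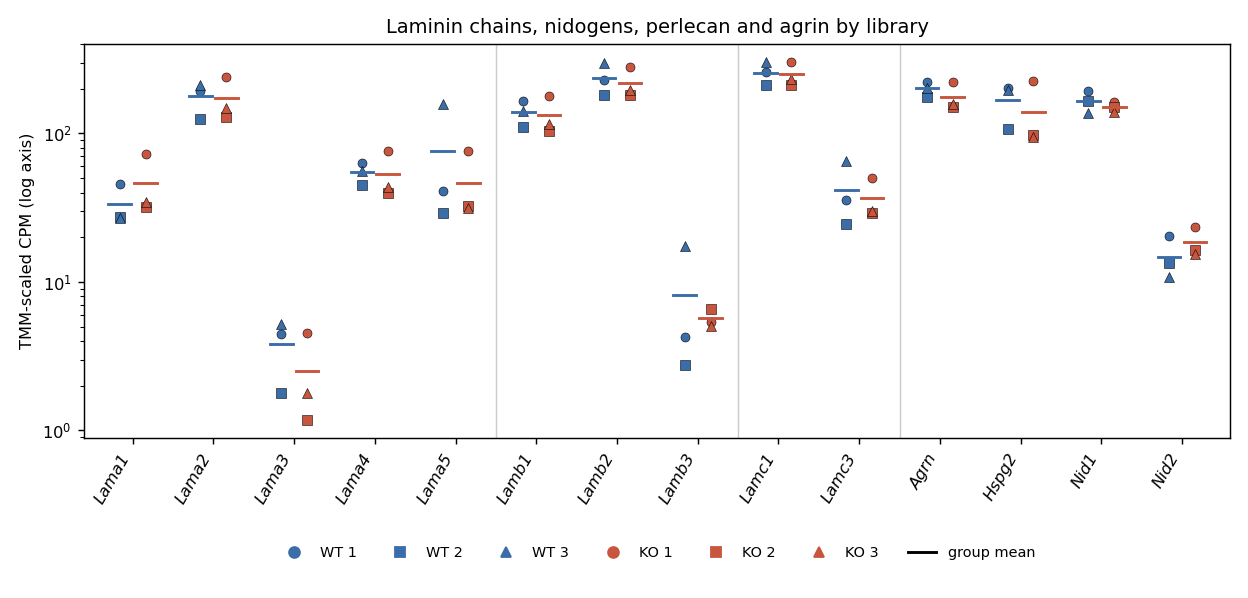
TMM-scaled CPM (log axis) of laminin chains, perlecan (Hspg2), agrin and nidogens in each library, with a symbol for each replicate and lines for group means. Wildtype replicate 3 (blue triangles) lies above the other 5 libraries at 157 CPM for Lama5 and 17.4 CPM for Lamb3, and the group means of Lama2, Lamb1 and Lamc1 lie close together.

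All 3 beta chains had fold changes below 0, none past the test. Lamb2, a chain of synaptic, kidney and nerve laminins (chromosome 9, 108479847 to 108490530), was at 230.1, 181 and 299.9 CPM in wildtype and 279, 181 and 195 CPM in knockout nerve (log2 fold change −0.12, SE 0.25). Lamb1, the beta chain of many other laminins, was at 164, 111 and 141 CPM in wildtype and 179, 104 and 115 CPM in knockout nerve (log2 fold change −0.07, SE 0.25). The groups overlapped for both, and wildtype replicate 3 was the highest library for Lamb2 and knockout replicate 1 for Lamb1. Per length of the longest transcript, Lamb2 made up 62.0% ± 3.69 in wildtype and 61.9% ± 0.948 in knockout nerve of the beta chain level and Lamb1 35.8% ± 5.37 in wildtype and 36.2% ± 1.53 in knockout nerve (SD, n = 3). Lamb3, the beta chain of the epithelial anchoring laminin, was at 17.4 CPM in wildtype replicate 3 and at 2.75 to 6.53 CPM in the other 5 libraries, and its log2 fold change of −0.52 turned to 0.69 without that library.

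Of the gamma chains, Lamc1 and Lamc3 had fold changes below 0 that did not pass the test. Lamc1, the gamma chain of most laminins (chromosome 1, 153218922 to 153332786), was at 259, 210.4 and 300.4 CPM in wildtype and 303, 213 and 233 CPM in knockout nerve. It had the smallest SD within groups of the laminin genes (0.26 in log2 CPM), and its log2 fold change was −0.04 (SE 0.20, 95% interval −0.53 to 0.44). It held 68.6% to 82.5% of the gamma chain level per length. Lamc3, the gamma chain of a smaller group of laminins, was at 35.5, 24.6 and 64.8 CPM in wildtype and 50.3, 29.2 and 30.2 CPM in knockout nerve (log2 fold change −0.19, SE 0.39; 0.27 without wildtype replicate 3). Wildtype replicate 3 and knockout replicate 1 were the highest libraries for Lamc3, and the groups overlapped.

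The proteins that link or complete the laminin sheet overlapped between the groups in each case. Nid1, nidogen, which joins laminin to type IV collagen (chromosome 13, 13437602 to 13512275), was at 193, 165 and 138 CPM in wildtype and 163, 149.9 and 139 CPM in knockout nerve (log2 fold change −0.14, SE 0.16). Its paralog Nid2 was at 20.3, 13.3 and 10.8 CPM in wildtype and 23.5, 16.4 and 15.5 CPM in knockout nerve (log2 fold change 0.32, SE 0.28; 0.13 without wildtype replicate 3 and 0.11 without knockout replicate 1). Agrn, encoding agrin, which clusters receptors at the muscle synapse and binds dystroglycan (chromosome 4, 156165290 to 156197533), was at 223, 177 and 203 CPM in wildtype and 223, 151 and 157 CPM in knockout nerve (log2 fold change −0.18, SE 0.20; −0.38 without knockout replicate 1). Wildtype replicate 3 was the lowest library for Nid1 and Nid2 but not for Agrn.

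Hspg2, encoding perlecan (chromosome 4, 137468751 to 137570630), was at 201, 106 and 195 CPM in wildtype and 227, 97.4 and 95.2 CPM in knockout nerve. Wildtype replicates 1 and 3 and knockout replicate 1 were high, and the other 3 libraries, of both genotypes, were low and close to each other. The log2 fold change was −0.26 (SE 0.41), and −0.80 without knockout replicate 1.

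Of the 3 integrin alpha chains that bind laminin, 2 had fold changes above 0 and 1 below. Itga6, the partner of Itgb1 and Itgb4 on Schwann cells (chromosome 2, 71786886 to 71858427), was at 153, 137 and 102 CPM in wildtype and 137, 143 and 144 CPM in knockout nerve (log2 fold change 0.12, SE 0.17). Itga3, which also pairs with Itgb1, was at 57.6, 48.1 and 65.4 CPM in wildtype and 65.3, 48.1 and 55.4 CPM in knockout nerve (log2 fold change −0.02, SE 0.18). Itga7, known best from muscle, was at 37.2, 33.4 and 23.3 CPM in wildtype and 41.8, 33.6 and 38.4 CPM in knockout nerve (log2 fold change 0.28, SE 0.20). For Itga6 and Itga7 wildtype replicate 3 was the lowest of the 6 libraries. Without it the log2 fold change of Itga6 was −0.039, and that of Itga7 was 0.098.

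Itgb1, the beta chain of most matrix integrins (chromosome 8, 128685654 to 128733579), had the highest mean level per kilobase of the longest transcript among these genes, 86.8 ± 14.7 in wildtype and 76.2 ± 6.08 in knockout nerve (CPM per kb, SD, n = 3). Its CPM values were 283, 318 and 393 CPM in wildtype and 267, 313 and 293 CPM in knockout nerve, with all knockout libraries inside or below the wildtype range, and its log2 fold change was −0.19 (SE 0.17, 95% interval −0.59 to 0.22). Itgb4, which pairs with Itga6, was at 70.2, 65.1 and 39.1 CPM in wildtype and 58.7, 63.5 and 58.7 CPM in knockout nerve (log2 fold change 0.05, SE 0.23; −0.17 without wildtype replicate 3). Its share of the summed beta chain level per length was 2.86% in wildtype replicate 3 and 6.98% to 8.67% in the other 5 libraries. Itgb1 held 46.7% to 60.3% of that level.

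Among the collagen-binding alpha chains, Itga10, a chain of cartilage cells (chromosome 3, 96645584 to 96664519), was at 78.0, 77.1 and 132 CPM in wildtype and 92.0, 74.4 and 85.0 CPM in knockout nerve (log2 fold change −0.19, SE 0.24; 0.11 without wildtype replicate 3). Its counts are uncertain, since 33.5% of its exon bases also lie in the annotated gene model Gm42957 on the same strand. By the longest transcript Itga6 held the highest mean share of the integrin alpha chain level, 28.2% ± 7.77 in wildtype and 30.8% ± 2.97 in knockout nerve, ahead of Itga10 with 17.1% ± 3.68 in wildtype and 15.5% ± 0.812 in knockout nerve (SD, n = 3), but by joined exon length the mean shares were 19.4% and 21.5% for Itga6 and 23.5% and 22.0% for Itga10, so their order depends on the length used. Itga1, found on endothelial and smooth muscle cells, was at 10.99, 5.44 and 12.3 CPM in wildtype and 13.4, 5.05 and 3.31 CPM in knockout nerve (log2 fold change −0.40, SE 0.57; −1.20 without knockout replicate 1 and −0.18 without wildtype replicate 3). Itga11, of fibroblasts, was at 4.89 to 9.35 CPM in wildtype and 3.99 to 13.0 CPM in knockout nerve, and Itga2, shared by platelets and epithelia, at 1.26, 0.300 and 5.57 CPM in wildtype and 1.87, 0.812 and 0.371 CPM in knockout nerve. Wildtype replicate 3 alone gave Itga2 the lowest fold change of the 40 genes (−1.22, SE 1.05), which was 0.37 without it.

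Alpha chains that bind the Arg-Gly-Asp motif of fibronectin, vitronectin and osteopontin include Itgav (chromosome 2, 83722303 to 83806917), at 84.5, 94.3 and 146 CPM in wildtype and 91.4, 108 and 95.8 CPM in knockout nerve (log2 fold change −0.14, SE 0.22; 0.13 without wildtype replicate 3). Its partner Itgb5 was at 102, 118 and 333 CPM in wildtype and 107, 148 and 122 CPM in knockout nerve (log2 fold change −0.55, SE 0.46). Wildtype replicate 3 was high for both, 2.25 times the next library for Itgb5, whose log2 fold change was 0.18 without it. Itga5, the fibronectin receptor chain, was at 9.04, 10.5 and 33.5 CPM in wildtype and 9.57, 10.9 and 8.02 CPM in knockout nerve, and its log2 fold change of −0.90 (SE 0.51) was −0.051 without wildtype replicate 3. Itga8, another such chain, was at 42.1, 41.5 and 68.9 CPM in wildtype and 59.8, 37.7 and 44.4 CPM in knockout nerve (log2 fold change −0.10, SE 0.27; 0.17 without wildtype replicate 3).

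Itgb8, a further partner of Itgav, was at 77.8, 42.1 and 49.2 CPM in wildtype and 84.2, 31.3 and 26.4 CPM in knockout nerve. Replicate 1 of each genotype was the highest for Itgb8, and its log2 fold change was −0.25 (SE 0.48) with all libraries and −0.96 without knockout replicate 1. Itgb6, an epithelial chain, was low, at 0.990 to 2.76 CPM over the 6 libraries.

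**Figure D3:**
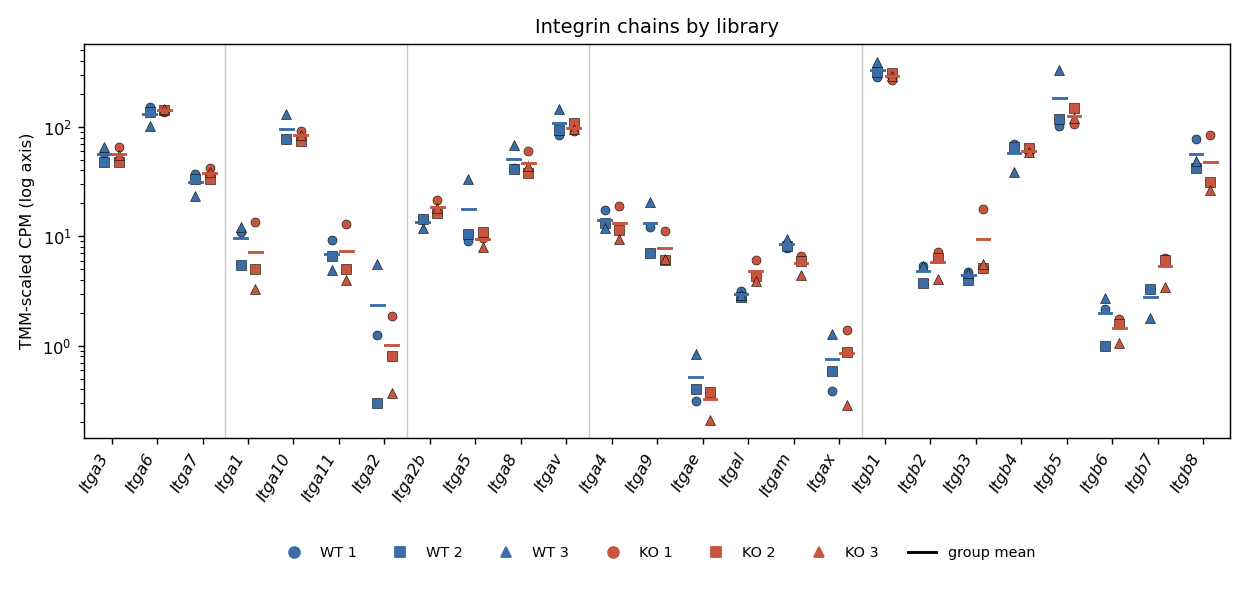
TMM-scaled CPM (log axis) of the integrin chains tested in each library, alpha chains in blocks by ligand and beta chains on the right, with a symbol for each replicate and lines for group means. Wildtype replicate 3 (blue triangles) lies above the other libraries for Itga2, Itga5 and Itgb5, and knockout replicate 1 (red circle) lies at 17.8 CPM for Itgb3, above 4.03 to 5.63 CPM in the other 5.

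The groups did not overlap for 5 of the 40 genes, 12.5% beside 10.3% of all genes tested: 4 were higher in knockout nerve (Itga2b, Itgb3, Itgal and Itgb7; 5.42% of all genes) and 1 was lower (Itgam; 4.93%). Itga2b, the alpha chain of the platelet fibrinogen receptor (chromosome 11, 102453297 to 102469883), was at 14.3, 14.4 and 12.04 CPM in wildtype and 21.7, 16.4 and 18.0 CPM in knockout nerve. The log2 fold change of Itga2b was 0.46 ± 0.17 (SE), with an adjusted p of 0.856 in edgeR, and 0.34 without knockout replicate 1. Its partner Itgb3 (chromosome 11, 104608000 to 104670476), which osteoclasts and vessels also use, was at 4.73, 4.03 and 4.59 CPM in wildtype and 17.8, 5.17 and 5.63 CPM in knockout nerve. Knockout replicate 1 was 3.16 times the next library, and the log2 fold change of Itgb3 was 1.10 ± 0.50 (SE, adjusted p of 1.000 in edgeR) with it and 0.28 without it.

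Itgal, the alpha chain of the leukocyte receptor for ICAM proteins (chromosome 7, 127296139 to 127335137), was at 3.17, 2.80 and 2.89 CPM in wildtype and 6.12, 4.39 and 3.93 CPM in knockout nerve. Every knockout library lay above every wildtype library, by the widest margin in knockout replicate 1, and the log2 fold change of Itgal was 0.70 ± 0.25 (SE), with an adjusted p of 0.816 in edgeR. Itgb7, a chain of gut-homing and intraepithelial lymphocytes (chromosome 15, 102215994 to 102233405), was at 3.31, 3.28 and 1.81 CPM in wildtype and 6.37, 6.11 and 3.45 CPM in knockout nerve. Knockout replicate 3 lay just above wildtype replicates 1 and 2, and the log2 fold change of Itgb7 was 0.92 ± 0.36 (SE; adjusted p in edgeR, 0.881).

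Itgam, the alpha chain of a complement receptor of macrophages, microglia and neutrophils (chromosome 7, 128062640 to 128118491), was at 7.82, 8.15 and 9.43 CPM in wildtype and 6.68, 6.01 and 4.42 CPM in knockout nerve. Wildtype replicate 3 was the highest and knockout replicate 3 the lowest, and the log2 fold change of Itgam was −0.57 ± 0.22 (SE), with an adjusted p of 0.881 in edgeR. The annotated gene Gm49368, on the same strand and with no row in the table, covers 68.7% of the exon bases of Itgam, and how reads there were assigned is not known from the labels. When libraries were left out in turn, the signs of these 5 genes stayed as given, and the unadjusted p ranged over 0.0377 to 0.0868 for Itga2b, 0.0296 to 0.0776 for Itgal, 0.0173 to 0.109 for Itgb7, 0.0263 to 0.126 for Itgam and 0.0287 to 0.241 for Itgb3 (edgeR).

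The sequences before the start sites of Itga2b, Itgb7 and Itgam are shown because blood cell genes are known for sites of ETS-family factors there. The RefSeq promoter table used here (GRCm38.p6) lists these 3 of the 5 genes. Each line gives the 150 bases before the start that this table lists, 5′ to 3′ on the strand of the gene, with capitals marking GAGGAA, the core bound by the ETS factor PU.1, or its reverse complement TTCCTC. The stretches are chr11:102469884-102470033 (minus strand) for Itga2b, chr15:102231936-102232085 (minus strand) for Itgb7, whose listed start lies inside the gene span given above and not at its end, and chr7:128062490-128062639 (plus strand) for Itgam.
Itga2b: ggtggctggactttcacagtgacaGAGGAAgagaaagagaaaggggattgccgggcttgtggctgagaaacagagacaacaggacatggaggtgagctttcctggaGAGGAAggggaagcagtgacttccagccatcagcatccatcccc
Itgb7: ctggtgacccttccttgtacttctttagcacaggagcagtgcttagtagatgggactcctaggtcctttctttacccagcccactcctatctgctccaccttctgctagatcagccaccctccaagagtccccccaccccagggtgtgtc
Itgam: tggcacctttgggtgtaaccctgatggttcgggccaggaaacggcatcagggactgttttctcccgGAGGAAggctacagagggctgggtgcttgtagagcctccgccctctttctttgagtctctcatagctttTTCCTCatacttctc
GAGGAA occurred 2 times before Itga2b, and each orientation occurred 1 time before Itgam. Neither was in the stretch before Itgb7. Over both strands these letters were in 14.5% of the 32851 stretches of this length in the table, and in 11 of the 30 listed for 26 of the 41 genes. A match describes the letters only and marks no site of binding.

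Markers of blood cells were measured beside these integrins. The 7 markers of platelets and megakaryocytes summed to 7.63, 9.99 and 5.81 CPM in wildtype and 33.3, 15.3 and 23.8 CPM in knockout nerve. For 6 of the 7, all but Gp1ba, every knockout library lay above every wildtype library, as for 5.42% of all genes tested. None of the 7 was called by edgeR. Ppbp, a platelet chemokine, was at 18.2 CPM in knockout replicate 1, its highest value and the library in which Itga2b and Itgb3 were highest. Markers of osteoclasts, which also use Itgb3, summed to 18.3 to 29.9 CPM in wildtype and 23.7 to 30.3 CPM in knockout nerve, most of it from Ctsk. Of the 7 osteoclast markers 4 were highest in knockout replicate 1, among them Acp5 and Mmp9 (4.48 and 4.35 CPM). Ctsk and Atp6v0d2 were highest in wildtype replicate 3 (24.9 and 0.620 CPM), and Calcr in wildtype replicate 1. Only for Dcstamp, at 0.0111 to 0.129 CPM in wildtype and 0.348 to 0.659 CPM in knockout nerve, did the groups not overlap. Endothelial markers, of vessels, summed to 366 to 408 CPM in the wildtype libraries and 433 to 533 CPM in the knockout libraries, without overlap. Of the 9, only 2, Emcn and Tek, were higher in every knockout library. The list did not rise as a whole. The largest rises in mean, wildtype to knockout, were in Emcn (102 to 163 CPM) and Cldn5 (38.3 to 73.4 CPM). The knockout means of Pecam1, Cdh5, Flt1 and Tie1 were below the wildtype means, and Kdr and Eng changed little.

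Of 10 neutrophil markers 9 were in the table, and they summed to 19.4, 25.7 and 54.9 CPM in wildtype and 125, 145 and 74.1 CPM in knockout nerve. In knockout replicate 1 lactoferrin (Ltf) gave 121 CPM of the sum while S100a8 was at 0.619 CPM, its lowest value of the 6 libraries, and the groups overlapped for each of the 9. Macrophage and microglia markers, 11 of 12 in the table, summed to 250.2, 259 and 269 CPM in wildtype and 208, 226 and 179 CPM in knockout nerve, lower in every knockout library and lowest in knockout replicate 3, as Itgam was. For 3 of these 11 every knockout library lay below every wildtype library, as for 4.93% of all genes tested.

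General leukocyte markers overlapped, at 80.0 to 89.5 CPM in wildtype and 69.7 to 86.8 CPM in knockout nerve, and so did the sums for T and NK cells (2.05 to 3.81 CPM in wildtype and 2.19 to 3.47 CPM in knockout nerve; 2 of 8 markers were higher in every knockout library) and B cells (3.58 to 4.08 CPM in wildtype and 3.03 to 5.31 CPM in knockout nerve; 1 of 6). Over all genes tested 5.42% were higher in every knockout library. Among the lymphocyte markers that were, Cd3d (0.0702 to 0.185 CPM) and Vpreb1 (0.0779 to 0.211 CPM) had very low levels in all libraries. No marker of the platelet, neutrophil, macrophage, leukocyte, T and NK cell or B cell list was at 0 in all libraries. In the erythroid list Hbb-bt and Hbb-bs were at 0 in all libraries and Hba-a1 had 1 count, while the whole list summed to 7.20 to 26.7 CPM in wildtype and 5.16 to 7.74 CPM in knockout nerve. Their part in the values of the integrins was not tested.

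**Figure D4:**
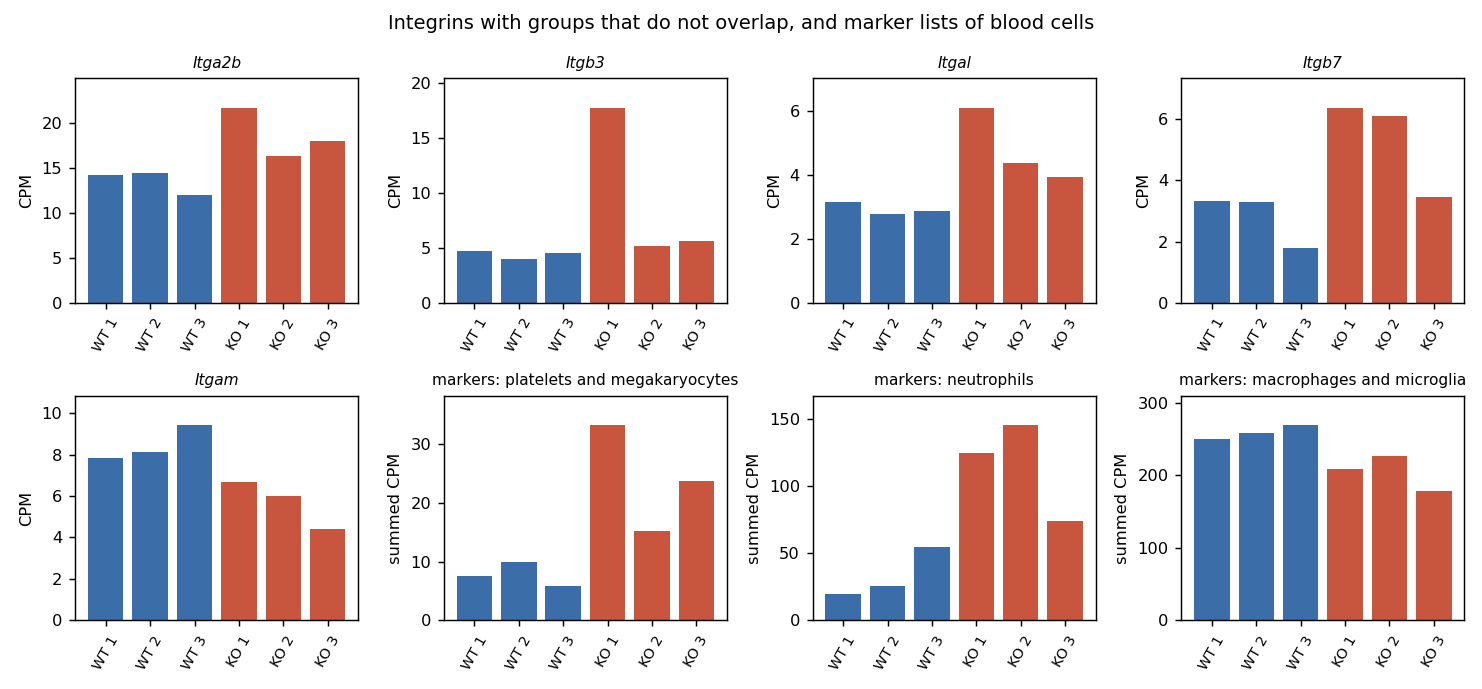
CPM of the 5 integrin genes whose groups did not overlap, and summed CPM of 3 marker lists, by library (wildtype in blue, knockout in red, 1 bar a library, axes from 0). Itgb3 and the platelet and megakaryocyte markers are highest in knockout replicate 1, and Itgam and the macrophage and microglia markers are lowest in knockout replicate 3.

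The other chains of this class overlapped between the groups. Itgb2, the shared beta chain of Itgal, Itgam, Itgax and Itgad, was at 5.41, 3.77 and 5.40 CPM in wildtype and 7.16, 6.33 and 4.11 CPM in knockout nerve (log2 fold change 0.27, SE 0.29; 0.10 without knockout replicate 1). Itgax, of dendritic cells, was at 0.384 to 1.29 CPM in wildtype and 0.290 to 1.40 CPM in knockout nerve, and Itgae, of intraepithelial lymphocytes, at 0.312 to 0.842 CPM in wildtype and 0.209 to 0.382 CPM in knockout nerve. Itga4, which binds VCAM1 and fibronectin, was at 17.3, 13.2 and 12.03 CPM in wildtype and 19.1, 11.4 and 9.50 CPM in knockout nerve (log2 fold change −0.09, SE 0.30). Itga9, a receptor chain for tenascin C and osteopontin, was at 12.3, 7.07 and 20.6 CPM in wildtype and 11.3, 6.11 and 6.22 CPM in knockout nerve (log2 fold change −0.76, SE 0.44). The log2 fold change of Itga9 was −0.30 without wildtype replicate 3 and −1.11 without knockout replicate 1. In Itga9 and Itgae wildtype replicate 3 was the highest library, and for Itgax it lay close to the highest, knockout replicate 1.

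Across all 40 genes the spread between libraries was wide. The median SD within groups was 0.40 (log2 CPM), beside 0.26 for all genes tested. Wildtype replicate 3 was the highest library for 18 genes and knockout replicate 1 for 19, in all 37 of 40 (92.5%), while 45.6% of all genes were highest in these libraries. The median deviation of the genes from their mean over the libraries was 0.34 (log2) in wildtype replicate 3 and 0.37 in knockout replicate 1, against 0.055 in wildtype replicate 1 and −0.24, −0.22 and −0.20 in wildtype replicate 2, knockout replicate 2 and knockout replicate 3.

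Some genes were at least 2 times every other library, a mark that a gene can have in only 1 library. In wildtype replicate 3 there were 7 (17.5%, beside 3.47% of all genes), among them the laminin chains Lama5 and Lamb3 and the integrin chains Itga2, Itga5, Itgae and Itgb5. Knockout replicate 1 had 1, Itgb3 (2.5%, beside 0.622%), and the other 18 genes highest there, among them Lama1, Lama2, Lama4, Lamb1, Hspg2, Itga1, Itga11 and Itgb8, were at most 1.595 times the next library. The other libraries had 0 such genes, beside 0.275% of all genes in wildtype replicate 1, 0.203% in wildtype replicate 2, 0.197% in knockout replicate 2 and 0.108% in knockout replicate 3. Of the 8 markers of cochlear epithelium 7 were highest in wildtype replicate 3, Tectb by a small margin, and Tecta was not. Krt18 was at 40.8 CPM there and 5.66 to 12.02 CPM elsewhere and Epcam at 116 CPM and 25.8 to 54.1 CPM. In knockout replicate 1 the Schwann cell marker sum was the lowest (8882 CPM, against 11586 to 15138). The part of these cell types in the values was not tested.

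**Figure D5:**
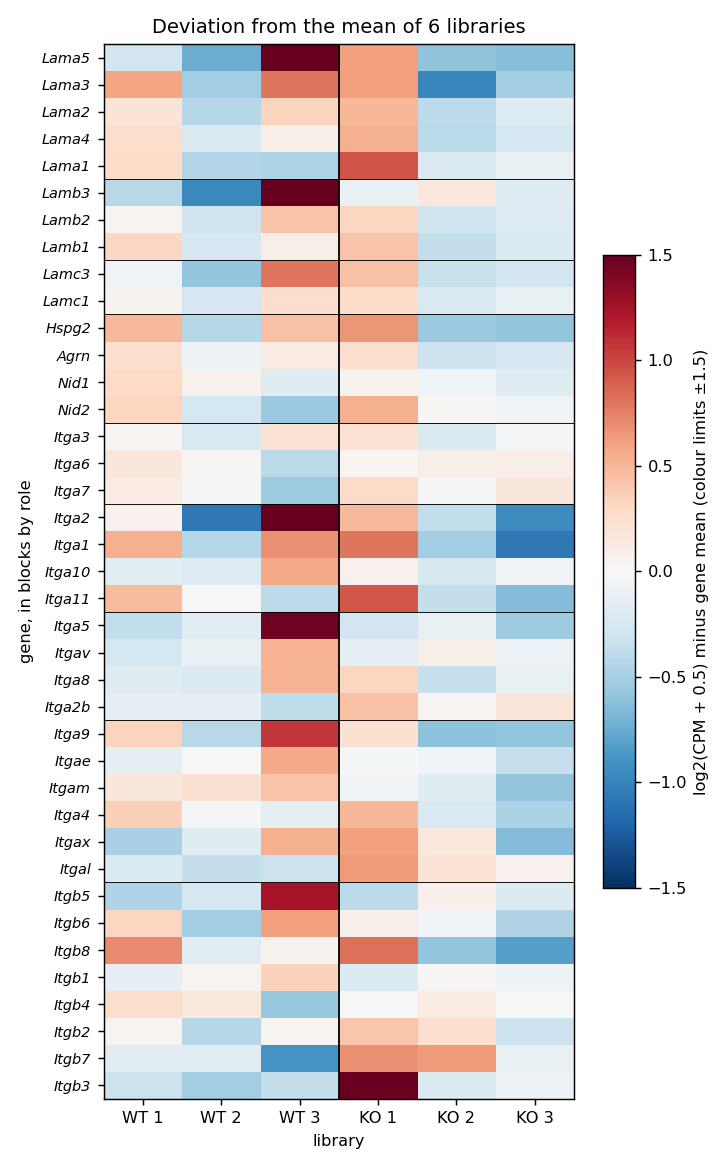
Deviation of each gene from its mean over the 6 libraries (log2 of CPM + 0.5, colour limits ±1.5) for 39 of the 40 genes tested, in blocks by role, with libraries in columns and a line between the genotypes. Wildtype replicate 3 and knockout replicate 1 hold most of the red cells, with medians over the 40 genes of 0.34 and 0.37, while wildtype replicate 2 and knockout replicates 2 and 3 are mostly blue.

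Genes that work with laminins and integrins were followed in 5 further lists, of which edgeR called 0 genes in either direction. Only Fbln2 was called by DESeq2. Fbln2, higher in knockout nerve, and Col4a3 and Vcam1, both lower, had an unadjusted p under 0.05 in edgeR, as had 5.2% of all genes. Wildtype replicate 3 stood apart for Col4a3 (49.3 CPM, against 9.32 to 16.4 CPM elsewhere), whose groups overlapped. It was also far the highest for Vcam1, at 90.1, 101 and 262 CPM in wildtype and 79.9, 74.8 and 71.9 CPM in knockout nerve. For Vcam1 every knockout library still lay below every wildtype library, as for 4.93% of all genes tested. Of 22 other basement membrane genes 3 had a fold change above 0 and 19 below, with a median of −0.29. Wildtype replicate 3 was the highest library for many of these, such as Tinagl1 (61.9 CPM, against 14.1 to 19.7 CPM elsewhere) and Npnt (118 CPM, against 41.0 to 54.1 CPM). It was not the highest for others, such as Fbln2 and Col18a1. How far the split rested on that library was not tested. Fbln2, a matrix glycoprotein that binds laminin and nidogen, was at 49.4, 41.3 and 45.2 CPM in wildtype and 72.6, 76.7 and 68.5 CPM in knockout nerve, with no overlap. Its log2 fold change was 0.68 ± 0.13 (SE), and the adjusted p was 0.247 in edgeR and 0.00421 in DESeq2.

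Of 17 tested genes for integrin ligands outside the basal lamina, 5 were above 0 and 12 below (median −0.16). Spp1, encoding osteopontin, was at 2877, 3323 and 7326 CPM in wildtype and 2974, 4101 and 4271 CPM in knockout nerve. Fn1, encoding fibronectin, was at 347, 304 and 294 CPM in wildtype and 482, 203 and 177 CPM in knockout nerve. Wildtype replicate 3 stood apart for Spp1 and knockout replicate 1 for Fn1.

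Dystroglycan with its complex and other laminin or agrin receptors had 5 of 19 genes above 0 and 14 below (median −0.10). Prx, encoding periaxin, a myelin protein that stabilises Schwann cell contacts with the basal lamina, was at 805, 592 and 484 CPM in wildtype and 631, 575 and 583 CPM in knockout nerve. Its partner Drp2 was at 465, 399 and 337 CPM in wildtype and 469, 340.4 and 353 CPM in knockout nerve. Both overlapped between groups. The enzymes that build the laminin-binding sugar of dystroglycan had 7 of 12 above 0 and 5 below (median 0.045). Large, which lengthens that sugar, was at 98.1, 74.3 and 40.3 CPM in wildtype and 77.4, 69.3 and 75.4 CPM in knockout nerve, with the lowest value in wildtype replicate 3. Pomgnt1, which acts earlier, was at 66.5, 64.2 and 62.5 CPM in wildtype and 57.5, 65.7 and 63.7 CPM in knockout nerve.

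Among 26 genes of the integrin-linked adhesion machinery 12 were above 0 and 14 below (median −0.02). Tln1, encoding talin, which activates integrins from inside the cell, was at 215, 131 and 273 CPM in wildtype and 277, 133 and 135 CPM in knockout nerve. Wildtype replicates 1 and 3 and knockout replicate 1 were high for Tln1, the same 3 libraries as for perlecan. Tns1, encoding a tensin that ties integrins to actin, was at 200.2, 174 and 1173 CPM in wildtype and 249, 212 and 187 CPM in knockout nerve, and wildtype replicate 3 set it apart: its log2 fold change of −1.26 (SE 0.73) turned to 0.20 without that library.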

How the data were processed

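Per library the deposited table gives raw counts for each gene, and the submitters' processing notes name mm10, HTSeq and DESeq2. Versions, the aligner, strand and the handling of reads that match several genes are unknown here. The authors' deposited comparison adds, per the file headers, a signal (the mean normalised count), log2 fold changes, a score (the test statistic) and p-values. Per the labels' protocols, nerves were microdissected and libraries came from a TruSeq kit.

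Rows of 5 symbols listed on 2 rows with identical counts were joined. In R 4.3.3, edgeR 4.0.16 compared knockout with wildtype (filterByExpr, TMM, robust quasi-likelihood F test, two-sided, Benjamini-Hochberg over 16722 genes); an SE is the fold change over the square root of F. DESeq2 1.42.0, limma 3.58.1 (voom), other scalings and filters, a replicate block and fits without each library were alternatives. The fits, apart from the block and those without a library, were tested on simulated data. No 2 libraries of a group agreed within sampling noise (lowest chi-square per degree of freedom 41.1). The labels give separate mice with a single library each, so p-values measure the spread between libraries. In that spread, mouse, dissection and library preparation cannot be told apart. Positions are from RefSeq (GRCm38.p6, 41 of 41 genes), lengths and overlaps from GENCODE.

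The genes and lists were chosen with earlier results of these data known. Given in every library were genes with an unadjusted p under 0.05, genes without overlap at a mean of at least 1 CPM, and the 2 of highest mean in each role; of each further list, genes called or else the 2 of highest mean. Other genes with values in every library, such as Hspg2 and Lama4, were chosen after their values were seen. Values of 1 gene that the counts include are not reported here.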

Additional observations from a re-analysis of the deposited data

How the results depend on the processing

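No gene of the laminin, basal lamina and integrin set passed in any of the 15 alternative fits, where the lowest adjusted p was 0.300 (DESeq2). Over all genes edgeR called 23, DESeq2 252 and the fit with a replicate block 3, and fits without 1 library called 3 to 14. The replicate numbers, those of the titles, were not taken as pairing the mice, since deviations of same-numbered libraries correlated at 0.426, 0.216 and −0.151 (the descriptions number the knockout samples 1, 3 and 4, and by these wildtype replicate 3 and knockout replicate 2 correlated at 0.21), and the block called 0 of the 40 genes. Of the basement membrane list DESeq2 called 1 gene (Fbln2, log2 fold change 0.68) and edgeR 0, with 2 at an unadjusted p under 0.05. The median log2 fold change of the 40 genes was −0.36 to 0.08 without 1 library and −0.14 to −0.10 otherwise; the SD between libraries of a group was 0.31. The count of genes without overlap was 5 under each scaling tried. Of 49 single genes 28 changed sign in at least 1 fit without a library, none of them called. Their log2 fold changes there ranged as follows. Laminins: Lama2 −0.36 to 0.12, Lama4 −0.39 to 0.13, Lama5 −1.24 to 0.41, Lamb1 −0.34 to 0.080, Lamb2 −0.34 to 0.080, Lamb3 −0.93 to 0.69, Lamc1 −0.20 to 0.081 and Lamc3 −0.49 to 0.27. Integrins: Itga2 −1.9999 to 0.37, Itga3 −0.14 to 0.085, Itga4 −0.44 to 0.10, Itga6 −0.039 to 0.25, Itga8 −0.31 to 0.17, Itga10 −0.32 to 0.11, Itga11 −0.62 to 0.37, Itgav −0.29 to 0.13, Itgax −0.37 to 0.81, Itgb4 −0.17 to 0.21, Itgb5 −0.84 to 0.18 and Itgb8 −0.96 to 0.050. Others: Spp1 −0.49 to 0.28, Fn1 −0.73 to 0.12, Prx −0.24 to 0.15, Drp2 −0.21 to 0.076, Large −0.23 to 0.37, Pomgnt1 −0.093 to 0.0075, Tns1 −1.67 to 0.20 and Tln1 −0.62 to 0.063. With all libraries Itga11 (0.076) was −0.095 in limma voom and −0.072 with the replicate block, and Itga3 was 0.0018 when scaled by total counts. The cause of these moves was not tested. With 3 mice a group the 95% interval of Lamc1 still runs from 0.695 to 1.36-fold.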
